A study of Xenopus laevis with 37 samples.

Results

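The heart precursor factors described here are the transcription factor genes tbx20.L, nkx2-5.S, nkx2-3.S and hand2.L of the African clawed frog, Xenopus laevis. They were chosen by name, with earlier results of these data known, and make up 4 of the 40271 gene rows measured. All 4 passed the filter on low values, as did 28863 rows in all. The suffixes .L and .S mark the long and short copies that most genes have in this species, whose genome arose from the joining of a pair of ancestral genomes. Levels are in TPM, the usual unit for transcripts corrected for length and given as a share of each library, from RNA sequencing of pieces of embryo at stage 20, early in organ formation.

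The study asked how Wnt/β-catenin and BMP/Smad1 signalling act on foregut (FG) and hindgut (HG) precursors, and its 37 libraries form 15 groups. In the inhibitor experiment, embryos grew from stage 12 to stage 20 in 60 µM BIO, in 40 µM DMH1 or in the DMSO vehicle, and foregut and hindgut pieces were cut from each, with 3 libraries in every group. BIO blocks the kinase GSK3 and so activates Wnt/β-catenin signalling, and DMH1 blocks type I BMP receptors. In the heat experiment, embryos carrying a heat-inducible dkk1-GFP transgene (hsp:Dkk1GFP) were held for 30 min at 37 °C and then kept at 13 °C (HSdkk1), or were not heated (noHS), with 2 libraries per region and treatment. dkk1 encodes a secreted Wnt antagonist. No heated embryos without the transgene were measured, so heat and transgene cannot be told apart, and one descriptive field calls these embryos wild type while the treatment field names the transgene. The remaining libraries were mesoderm (meso) and endoderm (endo) separated from foregut and hindgut pieces, 2 per tissue, and 3 of dorsal pieces (Dorsal), both with no treatment given. The label of the hindgut mesoderm group also carries a tissue field reading endoderm.

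In vertebrates the heart forms from lateral plate mesoderm that lies against the pharyngeal and foregut endoderm, and BMP signals favour cardiac fate while canonical Wnt signals at these stages restrain it. Tbx20, of the T-box family, and Nkx2-5, of the NK2 homeodomain family, are among the earliest regulators in that mesoderm, where they act with Gata factors. Hand2, a basic helix-loop-helix factor, is used in the heart and elsewhere in the lateral plate, and Nkx2-3 is a close relative of Nkx2-5 that is made in the heart field and pharyngeal endoderm of Xenopus. None of the genes is restricted to the heart: tbx20 is also expressed in the cement gland of the Xenopus head, and nkx2-5 in pharyngeal endoderm.

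The TPM of each library summed to between 999208 and 999778, so sequencing depth is unknown. Between 15182 and 22769 rows reached 1 TPM per library, the fewest in FG_endo replicate 1. In the separated layers sox17a.L, an endoderm factor, averaged 0.75 ± 1.06 TPM in FG_meso against 434.1 ± 139 in FG_endo, and 5.84 TPM in HG_meso against 1080 in HG_endo (n = 2 each). This gene speaks only for little endoderm RNA in the meso libraries. It does not show that they are pure mesoderm, and their surface ectoderm markers are given with the layer results. The Wnt target axin2.L averaged 71.6 ± 13.2 TPM in FG_BIO against 7.06 ± 2.24 in FG_DMSO, and the BMP feedback gene bambi.L averaged 57.9 ± 5.99 TPM in FG_DMH1 against 223.1 ± 49.4 in FG_DMSO (SD, n = 3 each). The dkk1 rows were not higher in the libraries labelled heated: dkk1.L averaged 15.7 ± 1.48 TPM in FG_HSdkk1 against 18.4 ± 3.52 in FG_noHS, and 7.58 ± 0.743 TPM in HG_HSdkk1 against 9.77 ± 5.08 in HG_noHS (n = 2 each). Whether those rows collect reads of the transgene was not tested, and "heated" below means only that the library carries that label.

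In vehicle-treated embryos all 4 factors were lower in hindgut pieces than in foregut pieces. The call was made for each of them in HG_DMSO against FG_DMSO by limma's moderated test on log2(TPM + 1), with p-values adjusted over all rows by the Benjamini-Hochberg method and called under 0.05. Among all rows tested, 5.08 percent were called lower in the same comparison. Fold changes given as log2 are on the log2(TPM + 1) scale, which understates the change of genes at low levels, and plain folds are ratios of mean TPM.

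tbx20.L stood at 6.76, 2.57 and 11.25 TPM in the HG_DMSO libraries and at 70.89, 61.85 and 78.05 TPM in the FG_DMSO libraries. The groups were far apart, and the mean was 10.2-fold lower in hindgut (log2 difference -3.35, SE 0.36, limma adjusted p = 1.15e-07). nkx2-5.S had 1.2, 0.32 and 0.29 TPM in HG_DMSO against 70.38, 55.71 and 57.95 TPM in FG_DMSO. It showed the widest gap of the 4 factors, 102-fold lower in hindgut by the means (log2 difference -5.32, SE 0.32, limma adjusted p = 7.68e-12).

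nkx2-3.S had 0.55, 1.02 and 2.35 TPM in HG_DMSO against 29, 27.01 and 38.71 TPM in FG_DMSO. Its groups did not overlap either, with a mean 24.2-fold lower in hindgut (log2 difference -3.88, SE 0.36, limma adjusted p = 9.84e-09). hand2.L was the least abundant of the 4 in foregut and the least regional: 2.33, 1.26 and 2.8 TPM in HG_DMSO against 8.35, 5.61 and 10.13 TPM in FG_DMSO. Its mean was 3.77-fold lower in hindgut (log2 difference -1.53, SE 0.38, limma adjusted p = 0.0104), and this call was lost without FG_DMSO replicate 3 (adjusted p = 0.0611) or without HG_DMSO replicate 2 (0.0746). Because these are pieces of tissue, fewer cells of a type and less RNA per cell cannot be told apart here or in any comparison that follows.

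**Figure D1:**
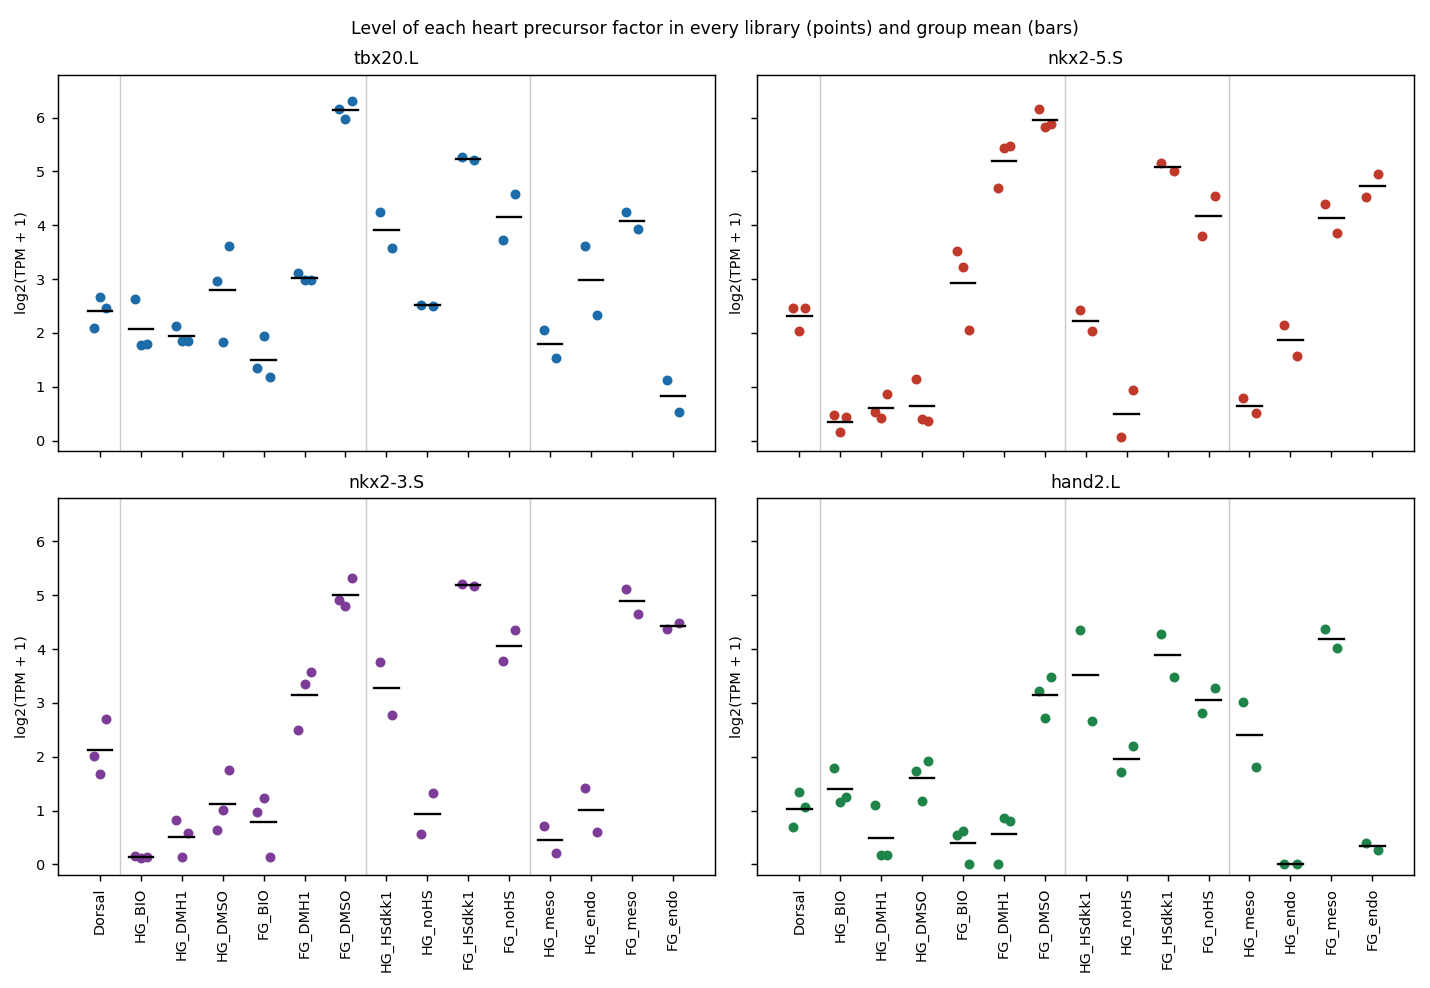
Level of each factor as log2(TPM + 1) on the vertical axis, with 1 point per library and a bar at each group's mean, for dorsal pieces, the inhibitor groups, the heat groups and the separated layers. For tbx20.L the FG_DMSO libraries at 61.85 to 78.05 TPM stand above every other group, and for nkx2-5.S and nkx2-3.S all HG_BIO, HG_DMH1 and HG_DMSO libraries lie below every FG_DMSO library.

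Across the 15 groups the order of the mean levels differed between the factors, as the plot of levels by library shows. tbx20.L was highest in FG_DMSO (70.3 ± 8.12 TPM, SD, n = 3), next in FG_HSdkk1 (36.8 ± 0.743 TPM, n = 2), and lowest in FG_endo (0.81 ± 0.509 TPM, n = 2), and these places were separated by gaps between the libraries. The 12 groups between them, which run from FG_noHS and FG_meso down to HG_meso and FG_BIO, each overlapped the next, so the order of neighbours is not resolved. Groups further apart could still be separate, as were FG_meso (14.22 to 17.94 TPM) and HG_meso (1.9 to 3.13 TPM). nkx2-5.S was highest in FG_DMSO, apart from all others. FG_DMH1, FG_HSdkk1, FG_endo, FG_noHS and FG_meso came next, with FG_DMH1 overlapping both FG_HSdkk1 and FG_endo. FG_BIO, Dorsal, HG_HSdkk1 and HG_endo followed after a gap, and all other hindgut groups lay lowest after another.

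nkx2-3.S was high in FG_HSdkk1 (35.6 ± 0.608 TPM, n = 2), FG_DMSO (31.6 ± 6.26 TPM, n = 3) and FG_meso (29 ± 6.77 TPM, n = 2). FG_DMSO overlapped each of the others, which did not overlap each other. FG_endo and then FG_noHS followed, with gaps between them. Its lowest group was HG_BIO, at 0.1 ± 0.02 TPM (n = 3). hand2.L had the least resolved order, with 13 of its 14 neighbouring pairs overlapping, from FG_meso (17.4 ± 3.19 TPM, n = 2) down to FG_endo. In HG_endo it was listed at 0 in both libraries.

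Dorsal pieces, which held the most somite and neural marker RNA, carried little of any factor. tbx20.L stood at 3.27, 5.35 and 4.51 TPM, nkx2-5.S at 4.49, 3.1 and 4.48, nkx2-3.S at 3.03, 2.21 and 5.52, and hand2.L at 0.61, 1.54 and 1.09 TPM in the Dorsal libraries. All lay under every FG_DMSO library, and all 4 were called lower in Dorsal, by 16.1-fold, 15.2-fold, 8.80-fold and 7.44-fold in that order of genes (limma adjusted p = 5.04e-09, 1.3e-09, 5.05e-07 and 1.09e-04). In this comparison 21.4 percent of all rows were called lower, so being called says little there. Dorsal pieces had no treatment given and FG_DMSO pieces came from embryos in vehicle, so tissue and vehicle cannot be told apart. The foregut group chosen also sets the folds. Unheated FG_noHS pieces averaged 17.6, 17.6, 16.1 and 7.38 TPM in the same order of genes, and Dorsal was not tested against them.

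All 4 factors were lower in foregut pieces of embryos grown in BIO, the activator of Wnt/β-catenin signalling, with FG_BIO set against FG_DMSO, whose values are given above. Of all rows tested, 4.5 percent were called lower. tbx20.L stood at 1.55, 2.84 and 1.27 TPM in the FG_BIO libraries, far under FG_DMSO and overlapping the lowest HG_DMSO library. It fell 37.2-fold by the means (log2 difference -4.66, SE 0.36, limma adjusted p = 1.22e-09).

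nkx2-5.S stood at 10.45, 8.38 and 3.13 TPM in FG_BIO, all below FG_DMSO and all above HG_DMSO. Its mean fell 8.38-fold (log2 difference -3.02, SE 0.32, limma adjusted p = 3.19e-07), the smallest change of the 4 by fold of means. nkx2-3.S stood at 0.95, 1.35 and 0.1 TPM in FG_BIO, in the range of the hindgut pieces of the same experiment, and fell 39.5-fold (log2 difference -4.23, limma adjusted p = 6.39e-09). hand2.L stood at 0.46 and 0.54 TPM and was listed at 0 in the remaining FG_BIO library. It fell 24.1-fold by the means (log2 difference -2.75, limma adjusted p = 2.01e-05), from a low starting level.

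In hindgut pieces BIO gave no call in limma for any of the 4 factors, and 0.0277 percent of all rows were called in either direction (0.513 percent with the replicate block). An unadjusted p under 0.05 was found for 2 of the factors. The share of all rows at that unadjusted threshold was not computed, so nothing is read from this count. The Wnt target axin2.L was not called there either, at 51.8 ± 1.80 TPM in HG_BIO against 36.7 ± 1.90 TPM in HG_DMSO (SD, n = 3 each, limma adjusted p = 1). tbx20.L stood at 5.15, 2.44 and 2.46 TPM in HG_BIO, overlapping HG_DMSO (log2 difference -0.74, limma adjusted p = 0.795). nkx2-5.S stood at 0.39, 0.11 and 0.35 TPM and hand2.L at 2.45, 1.22 and 1.37 TPM in HG_BIO, also overlapping HG_DMSO (limma adjusted p = 1 for both). nkx2-3.S, at 0.12, 0.08 and 0.1 TPM in HG_BIO, lay under every HG_DMSO library but was not called (log2 difference -0.99, limma adjusted p = 0.456).

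The difference between the regions was itself tested with an interaction term. The BIO effect in hindgut minus that in foregut was 3.92 for tbx20.L, 2.74 for nkx2-5.S, 3.24 for nkx2-3.S and 2.53 for hand2.L on the log2 scale. All 4 were called (limma adjusted p = 4.86e-05, 0.000952, 0.000421 and 0.0135), beside 0.637 percent of all rows called in that direction. The mean HG_DMSO levels of 6.86, 0.603, 1.31 and 2.13 TPM in the same order left no room, on the log2(TPM + 1) scale, for a fall as large as that in foregut. On that scale the sign of the difference was therefore set in advance, and a positive value alone does not show that the regions respond differently to BIO. With a pseudocount of 0.1 the calls of nkx2-5.S (adjusted p = 0.308), nkx2-3.S (0.286) and hand2.L (0.0856) were lost, and that of tbx20.L was kept. For hand2.L the call was also lost without any of FG_DMSO replicate 3, FG_BIO replicate 3, HG_DMSO replicate 2 or HG_BIO replicate 1 (adjusted p between 0.0515 and 0.0584).

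Markers of other tissues moved with BIO too. The summed level of the blood and endothelium list, of which 4 rows in FG_BIO and 2 in FG_DMSO were at 0 throughout, was 341.6 to 476.2 TPM in FG_BIO against 1501 to 1772 TPM in FG_DMSO, and 23 of its 29 tested rows fell. The epidermis and cement gland list summed to 6570 to 7935 TPM in FG_BIO against 14390 to 20510 TPM in FG_DMSO, with 9 of 21 rows called lower. Among those were the cement gland genes ag1.L, at 263.1 TPM in FG_BIO against 1339 TPM in FG_DMSO on average, and pitx1.L, at 0.727 against 105.3 TPM. The part of these tissues in the fall of tbx20.L or of the other factors was not tested.

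Under the BMP receptor inhibitor DMH1, tbx20.L, nkx2-3.S and hand2.L fell in foregut pieces, and nkx2-5.S was not called. The difference between these genes was not itself tested. Across all rows 0.509 percent were called lower in FG_DMH1 than in FG_DMSO. This comparison and the BIO comparison use the same FG_DMSO libraries.

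tbx20.L stood at 7.64, 6.93 and 6.92 TPM in the FG_DMH1 libraries, close together and near the HG_DMSO level. It fell 9.81-fold by the means, 7.16 ± 0.413 TPM in FG_DMH1 against 70.3 ± 8.12 TPM in FG_DMSO (SD, n = 3 each; log2 difference -3.12, SE 0.36, limma adjusted p = 5.26e-06). nkx2-3.S stood at 4.64, 9.2 and 10.88 TPM in FG_DMH1, well under FG_DMSO and above HG_DMSO. It fell 3.83-fold (log2 difference -1.87, SE 0.36, limma adjusted p = 0.00478), a call lost without FG_DMSO replicate 3 (adjusted p = 0.0564) or FG_DMH1 replicate 1 (0.0693).

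hand2.L was listed at 0 in 1 FG_DMH1 library and stood at 0.82 and 0.75 TPM in the others. It fell 15.3-fold by the means (log2 difference -2.58, SE 0.38, limma adjusted p = 0.000247). nkx2-5.S kept most of its level: 24.94, 42.26 and 43.26 TPM in FG_DMH1. All 3 libraries lay below those of FG_DMSO, but the difference of -0.75 on the log2 scale (SE 0.32, 95% interval -1.42 to -0.09) was not called (limma adjusted p = 0.549), and 36.8 ± 10.3 TPM in FG_DMH1 compares with 61.4 ± 7.90 TPM in FG_DMSO. The interval does not include a fall as large as those fitted for the other 3 factors, but it overlaps the interval of nkx2-3.S (-2.60 to -1.14). The intervals of tbx20.L (-3.85 to -2.39) and hand2.L (-3.37 to -1.80) lie below it. Overlap of intervals is not a test of the difference between genes.

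The levels can also be set against each other within each library, as a ratio and with no test. tbx20.L over nkx2-5.S was 0.306, 0.164 and 0.16 in FG_DMH1 against 1.01, 1.11 and 1.35 in FG_DMSO. The ratio was also low in FG_BIO, at 0.148, 0.339 and 0.406. nkx2-3.S over nkx2-5.S was 0.186, 0.218 and 0.252 in FG_DMH1 and 0.0909, 0.161 and 0.0319 in FG_BIO, against 0.412, 0.485 and 0.668 in FG_DMSO. In both ratios every inhibitor library lay under every vehicle library. Both use only the .S rows of the NK2 genes, and no ratio was computed with their .L rows, whose levels are given below. The .S share of the nkx2-3 total itself differed between the groups. It was 36.9 to 38.6 percent in FG_DMH1 and 10.3 to 37.5 percent in FG_BIO, against 56 to 58.5 percent in FG_DMSO.

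**Figure D2:**
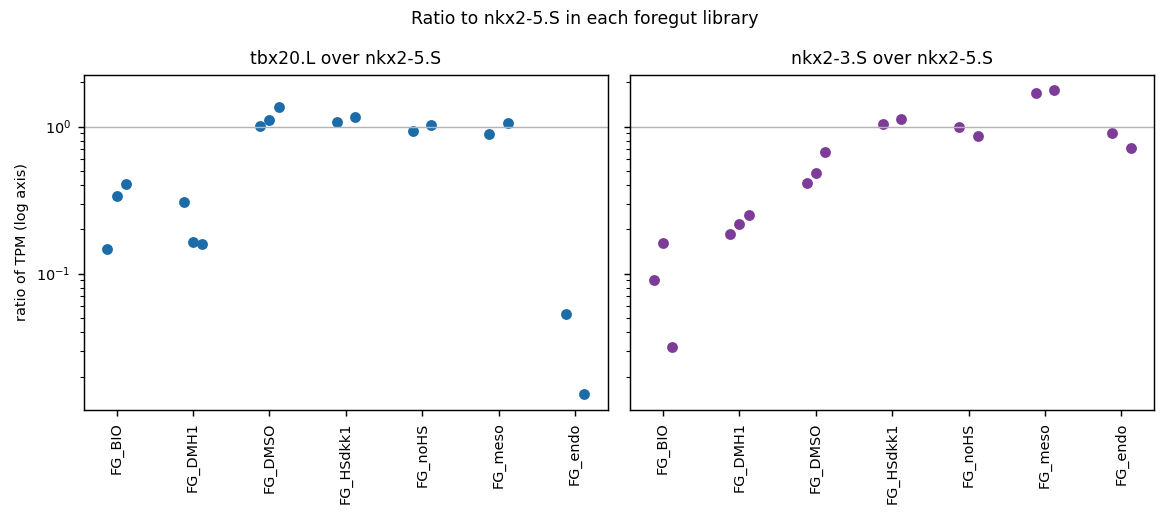
Ratio of the TPM of tbx20.L and of nkx2-3.S to that of nkx2-5.S in each foregut library, on a log axis, by group. For tbx20.L the FG_DMH1 libraries (0.16 to 0.306) and FG_BIO libraries (0.148 to 0.406) lie below the FG_DMSO libraries (1.01 to 1.35), and the FG_endo libraries (0.0151 and 0.0533) lie lowest.

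Set directly against DMH1, BIO gave lower foregut levels of tbx20.L (3.80-fold, log2 difference -1.54, limma adjusted p = 0.00792), nkx2-5.S (5.03-fold, -2.27, adjusted p = 3.45e-05) and nkx2-3.S (10.3-fold, -2.36, adjusted p = 7.75e-05). In that comparison 4.21 percent of all rows were called lower in FG_BIO. The tbx20.L call was lost without FG_BIO replicate 3 (adjusted p = 0.0586) or without the number 1 libraries (0.111), and those of nkx2-5.S (0.0607) and nkx2-3.S (0.0505) when only these groups were fitted. hand2.L, at or near 0 in both groups, was not called (log2 difference -0.17, limma adjusted p = 0.934).

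None of the factors was called under DMH1 in hindgut by limma, where 1.16 percent of rows were called in either direction. An unadjusted p under 0.05 was found for 2 of them, and the share of all rows at that threshold was not computed. tbx20.L stood at 3.39, 2.62 and 2.59 TPM in HG_DMH1 and overlapped HG_DMSO (log2 difference -0.86, limma adjusted p = 0.479). nkx2-5.S stood at 0.44, 0.33 and 0.83 TPM and nkx2-3.S at 0.77, 0.1 and 0.49 TPM in HG_DMH1, both overlapping HG_DMSO. hand2.L stood at 1.15, 0.13 and 0.13 TPM in HG_DMH1, all below HG_DMSO, without a call (log2 difference -1.13, limma adjusted p = 0.244).

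The difference between the regions in the DMH1 effect was 2.26 for tbx20.L on the log2 scale and was not called (limma adjusted p = 0.0643). With the replicate number as a block the same difference was called (adjusted p = 0.0281). It was 0.72 for nkx2-5.S, 1.25 for nkx2-3.S and 1.46 for hand2.L, with none called (0.149 percent of all rows called in either direction). An unadjusted p under 0.05 was found for 3 of the 4 factors. The share of all rows at that unadjusted threshold was not computed, so nothing is read from this count. As for BIO, the mean HG_DMSO levels left no room, on the log2(TPM + 1) scale, for a fall as large as that in foregut. The sign of the difference was therefore set in advance, and a positive value alone does not show that the regions respond differently to DMH1. Under DMH1, nkx2-5.S and nkx2-3.S stayed lower in hindgut than in foregut (log2 differences -4.60 and -2.63, limma adjusted p = 8.41e-11 and 5.96e-06; 5.24 percent of rows called lower). tbx20.L in HG_DMH1 against FG_DMH1 missed the threshold (-1.08, limma adjusted p = 0.052; 0.0234 with the block), and hand2.L was near 0 in both. Under BIO only nkx2-5.S of the 4 factors remained lower in hindgut than in foregut (log2 difference -2.58, limma adjusted p = 3.82e-06; 2.73 percent of rows called lower), with no call for tbx20.L (0.57, 0.475), nkx2-3.S (-0.64, 0.399) or hand2.L (1.00, 0.145). The other copy, nkx2-5.L, was not called there (log2 difference -1.45, limma adjusted p = 0.127).

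The blood and endothelium list summed to 694.5 to 845.4 TPM in FG_DMH1 against 1501 to 1772 TPM in FG_DMSO, with 9 of 29 tested rows called lower. The neural plate list summed to 877.9 to 1213 TPM in FG_DMH1 against 413.5 to 943.8 TPM in FG_DMSO. These sums overlapped, with 2 of 23 tested rows called higher and none lower. Of all 28863 rows tested, 213 were called under DMH1 in foregut in either direction, 147 of them lower. The epidermis and cement gland list summed to 9823 to 16960 TPM in FG_DMH1 against 14390 to 20510 TPM in FG_DMSO, with 3 of 21 rows called lower, none higher and a median log2 difference of -0.54. Of its cement gland genes, ag1.L averaged 884.8 ± 422.5 TPM in FG_DMH1 against 1339 ± 182.3 TPM in FG_DMSO (limma adjusted p = 0.838), and pitx1.L 78.5 ± 48.5 against 105.3 ± 24.5 TPM (adjusted p = 0.984), neither called. The part of these tissues in the results on the factors was not tested.

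**Figure D3:**
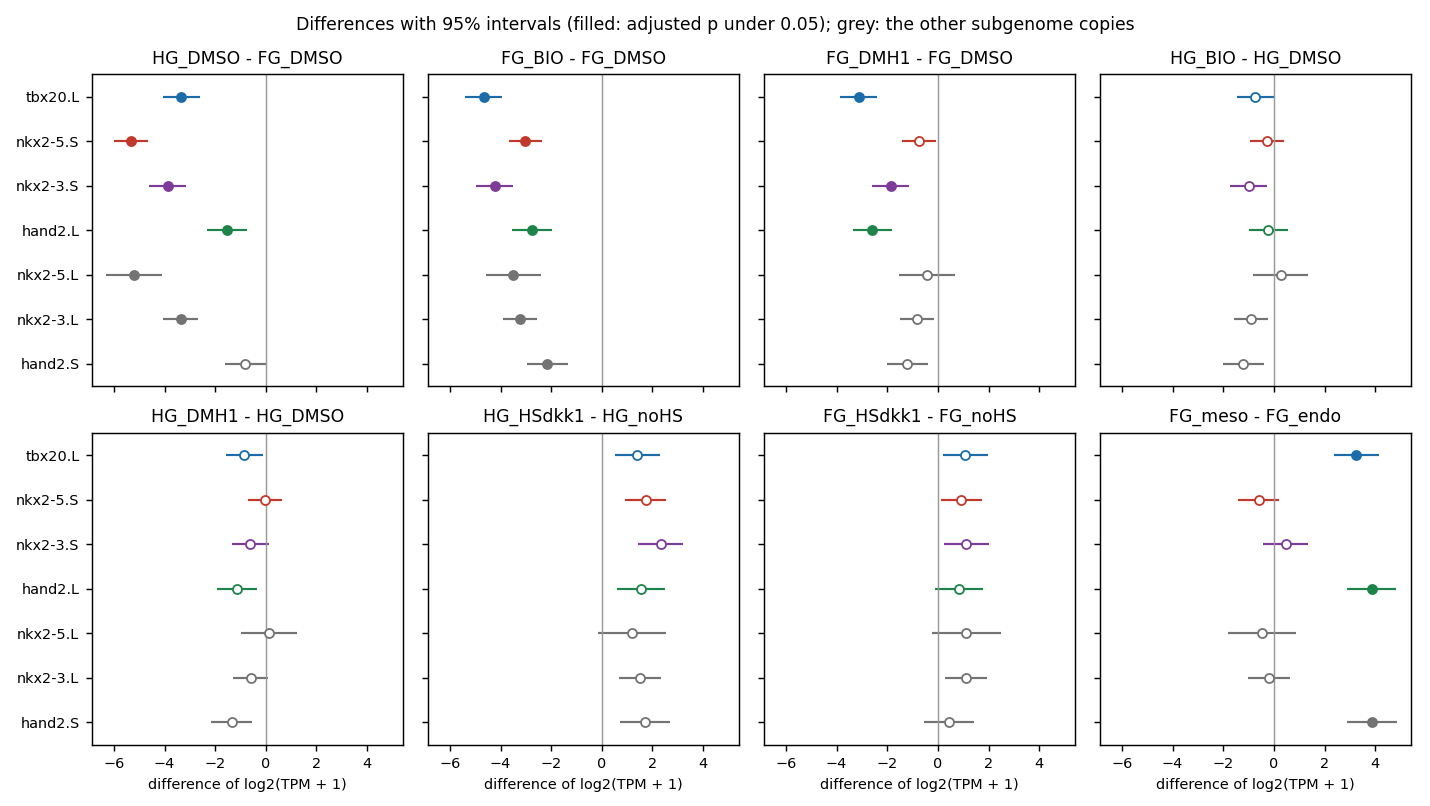
Log2 difference of log2(TPM + 1) with its 95% confidence interval for each factor (coloured) and for the other copies nkx2-5.L, nkx2-3.L and hand2.S (grey) in 8 comparisons; filled points have an adjusted p under 0.05. All 4 factors are filled and below 0 in HG_DMSO against FG_DMSO and in FG_BIO against FG_DMSO, and in FG_DMH1 against FG_DMSO nkx2-5.S (-0.75) is open.

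In the separated foregut layers, tbx20.L and hand2.L were higher in mesoderm, while nkx2-5.S and nkx2-3.S were present in both layers with no call. Of all rows tested, 18 percent were called higher in FG_meso, so a call by itself is common here. Both layers lay below whole FG_DMSO pieces for tbx20.L (16.1 and 0.81 against 70.3 TPM) and nkx2-5.S (16.9 and 25.9 against 61.4 TPM), mesoderm first. The layers had no treatment given and the FG_DMSO pieces came from embryos in vehicle, so layer separation and experiment cannot be told apart here. Whole FG_noHS pieces averaged 17.6 TPM for each of these genes. Layers and whole pieces were not tested against each other.

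tbx20.L stood at 17.94 and 14.22 TPM in FG_meso against 1.17 and 0.45 TPM in FG_endo. The mesoderm mean was 19.9-fold higher (log2 difference 3.26, SE 0.44, limma adjusted p = 1.06e-06). hand2.L stood at 19.65 and 15.14 TPM in FG_meso against 0.32 and 0.2 TPM in FG_endo, a 66.9-fold difference of means (log2 difference 3.86, SE 0.47, limma adjusted p = 2.17e-07).

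nkx2-5.S had 20.15 and 13.57 TPM in FG_meso against 21.96 and 29.88 TPM in FG_endo, a little higher in both endoderm libraries (log2 difference -0.60, limma adjusted p = 0.306). nkx2-3.S had 33.78 and 24.21 TPM in FG_meso against 19.72 and 21.49 TPM in FG_endo, a little higher in both mesoderm libraries (log2 difference 0.46, limma adjusted p = 0.523). Both of these rows were measured in foregut endoderm at levels of the same order as in foregut mesoderm. Their other copies are given below, and nkx2-5.L differed widely between the FG_endo libraries. Endoderm markers were low in the mesoderm libraries: the endoderm list summed to 59.27 to 71.38 TPM in FG_meso against 1042 to 2240 TPM in FG_endo. The epidermis and cement gland list went the other way, at 24000 to 24290 TPM in FG_meso against 6023 to 8931 TPM in FG_endo. Of its 21 rows, limma called 19 higher and 2 lower in FG_meso. Its cement gland gene ag1.L averaged 278.5 ± 90.8 TPM in FG_meso against 0.74 ± 1.05 TPM in FG_endo (n = 2 each). The part of surface ectoderm and cement gland RNA in the tbx20.L difference was not tested.

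In hindgut the layers split the factors in another way, where 21.6 percent of all rows were called higher and 11.6 percent lower in mesoderm. hand2.L stood at 7.05 and 2.51 TPM in HG_meso and was listed at 0 in both HG_endo libraries, so no fold is given (log2 difference 2.41, limma adjusted p = 0.000165). tbx20.L stood at 3.13 and 1.9 TPM in HG_meso against 11.3 and 4.04 TPM in HG_endo, and was called lower in mesoderm (log2 difference -1.19, limma adjusted p = 0.0362), a call lost without HG_endo replicate 1 (-0.54, adjusted p = 0.488) or HG_meso replicate 2 (-0.93, 0.22). nkx2-5.S, at 0.73 and 0.42 TPM in HG_meso against 3.45 and 1.97 TPM in HG_endo, was also called lower (log2 difference -1.21, limma adjusted p = 0.0177) and was lost without the same libraries (adjusted p = 0.169 and 0.109). nkx2-3.S, at 0.63 and 0.16 TPM in HG_meso against 1.67 and 0.52 TPM in HG_endo, was not called (limma adjusted p = 0.378). Of the 21 rows of the epidermis and cement gland list, limma called 18 higher and 3 lower in HG_meso. The part of surface ectoderm RNA in the hindgut layer differences was not tested.

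For tbx20.L the effect of layer differed between the regions. Its mesoderm-minus-endoderm difference was 4.44 lower on the log2 scale in hindgut than in foregut (interaction -4.44, SE 0.62, limma adjusted p = 2.23e-05; 3.51 percent of all rows called in that direction). The other 3 factors had no such call, with interactions of -0.61 for nkx2-5.S, -1.01 for nkx2-3.S and -1.45 for hand2.L (limma adjusted p = 0.64, 0.406 and 0.216).

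Compared within a layer, all 4 factors were lower in hindgut mesoderm than in foregut mesoderm, where 0.915 percent of all rows were called lower. The means were 6.39-fold lower in HG_meso for tbx20.L, 29.3-fold for nkx2-5.S, 73.4-fold for nkx2-3.S and 3.64-fold for hand2.L (limma adjusted p = 0.00178, 1.03e-06, 1.12e-07 and 0.0371). The hand2.L call was lost without FG_meso replicate 1 (adjusted p = 0.321), FG_meso replicate 2 (0.107) or HG_meso replicate 2 (0.437). In endoderm, nkx2-5.S and nkx2-3.S were lower in HG_endo than in FG_endo, by 9.56-fold and 18.8-fold (limma adjusted p = 5.68e-06 and 1.91e-06; 7.86 percent of rows called lower). tbx20.L was 9.47-fold higher in HG_endo than in FG_endo (log2 difference 2.15, limma adjusted p = 0.000687; 10.7 percent of rows called higher), and hand2.L was at or near 0 in both. Fitting only the groups compared, with 2 libraries each, ended all of the layer calls, as given under the processing alternatives.

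In the heat experiment each of the 4 factors was higher in every library labelled heated than in every unheated library of the same region, and limma called none, with 3 of the 4 in foregut and all 4 in hindgut at an unadjusted p under 0.05. Calls were rare over all rows, at 0.0243 percent in foregut and 0.00693 percent in hindgut. The shares of all rows that separated in this way, or that had an unadjusted p under 0.05, were not computed. With 2 libraries per group such separation is easily reached, so no joint rise is read from these counts. In foregut, tbx20.L stood at 37.29 and 36.24 TPM in FG_HSdkk1 against 12.17 and 23.05 TPM in FG_noHS (log2 difference 1.09, 95% interval 0.19 to 1.98). nkx2-5.S stood at 34.74 and 31.35 TPM in FG_HSdkk1 against 12.94 and 22.3 TPM in FG_noHS (log2 difference 0.92, 0.11 to 1.73).

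nkx2-3.S stood at 36.02 and 35.16 TPM in FG_HSdkk1 against 12.77 and 19.36 TPM in FG_noHS (log2 difference 1.13, 0.23 to 2.02). hand2.L stood at 18.51 and 10.13 TPM in FG_HSdkk1 against 6.06 and 8.7 TPM in FG_noHS (log2 difference 0.83, -0.13 to 1.79). The limma adjusted p was 1 for all of them. The unheated foregut pieces of this experiment had lower levels of tbx20.L, nkx2-5.S and nkx2-3.S than the FG_DMSO pieces of the inhibitor experiment, and the experiments were not tested against each other.

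In hindgut the values labelled heated were also higher, with wider spread. nkx2-3.S stood at 12.57 and 5.84 TPM in HG_HSdkk1 against 0.47 and 1.51 TPM in HG_noHS, 9.30-fold higher by the means (log2 difference 2.33, SE 0.44, limma adjusted p = 0.0652). It came closest to the threshold, and it passed without the library of HG_HSdkk1 called b here (adjusted p = 0.0269). tbx20.L stood at 17.88 and 10.95 TPM in HG_HSdkk1 against 4.72 and 4.68 TPM in HG_noHS, 3.07-fold higher by the means (log2 difference 1.40, limma adjusted p = 1).

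nkx2-5.S stood at 4.35 and 3.09 TPM in HG_HSdkk1 against 0.04 and 0.91 TPM in HG_noHS (log2 difference 1.73, limma adjusted p = 0.303). hand2.L stood at 19.43 and 5.36 TPM in HG_HSdkk1 against 2.29 and 3.61 TPM in HG_noHS (log2 difference 1.55, limma adjusted p = 1). Even in the libraries labelled heated, nkx2-5.S and nkx2-3.S remained called lower in HG_HSdkk1 than in FG_HSdkk1 (log2 differences -2.86 and -1.93, limma adjusted p = 6.96e-05 and 0.0226; 0.603 percent of rows called lower). Both calls were lost when only these groups were fitted (adjusted p = 0.392 for nkx2-5.S and 0.575 for nkx2-3.S). The nkx2-3.S call was also lost with a pseudocount of 0.1 (-2.04, adjusted p = 0.578), without either FG_HSdkk1 library (adjusted p = 0.234 and 0.111) or library b of HG_HSdkk1 (0.54), and with the replicate block (log2 difference -1.79, adjusted p = 0.0732). The block could not pair the regions there, because the hindgut columns of this experiment carry no replicate number. It took the foregut groups at their number 1 level and the hindgut groups at their mean, so its value is no paired comparison. No interaction of heat with region was called for any factor, and 0 had an unadjusted p under 0.05 (limma adjusted p = 1 for all; 0.0139 percent of rows called in either direction).

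Some marker sums differed with the label as well. The blood and endothelium list summed to 1528 to 1696 TPM in FG_HSdkk1 against 983.1 to 1203 TPM in FG_noHS, with none of its 29 tested rows called by limma and 5 at an unadjusted p under 0.05. In hindgut its row spib.L, a myeloid transcription factor, was called higher in HG_HSdkk1 than in HG_noHS (23.2 ± 21.6 against 0.38 ± 0.141 TPM, limma adjusted p = 0.00268). The paraxial mesoderm list summed to 157.6 to 224.6 TPM in HG_HSdkk1 against 329.7 to 409.4 TPM in HG_noHS. None of its 22 tested rows was called by limma, and 5 had an unadjusted p under 0.05. The endoderm and neural plate sums overlapped between FG_HSdkk1 and FG_noHS. The part of these tissues in the values of the factors was not tested. Between the unheated regions, nkx2-5.S and nkx2-3.S were lower in HG_noHS than in FG_noHS, by 37.1-fold and 16.2-fold (limma adjusted p = 1.71e-06 and 4.95e-05; 0.724 percent of rows called lower). tbx20.L (log2 difference -1.64, limma adjusted p = 0.0562) and hand2.L (-1.09, 0.535) were not called there.

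The other copies of the factors gave a partial check, since reads of near-identical copies can be divided between them uncertainly. No row for a short copy of tbx20 was analysed here. nkx2-5.L followed nkx2-5.S under the inhibitors in foregut: it stood at 46.13, 44.64 and 65.11 TPM in FG_DMH1 and 11.7, 5.9 and 1.76 TPM in FG_BIO, against 83.33, 55.7 and 70.98 TPM in FG_DMSO. It was called lower under BIO (log2 difference -3.49, limma adjusted p = 7.93e-05) and not under DMH1 (-0.43, adjusted p = 1). Unlike nkx2-5.S, it was not called lower in HG_BIO than in FG_BIO (log2 difference -1.45, limma adjusted p = 0.127). Nor was it called lower in HG_meso than in HG_endo (log2 difference -1.10, limma adjusted p = 0.216).

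nkx2-3.L fell under BIO (log2 difference -3.25, limma adjusted p = 1.64e-07) but, unlike nkx2-3.S, was not called under DMH1: 7.92, 14.64 and 18.39 TPM in FG_DMH1 against 20.56, 21.18 and 30.43 TPM in FG_DMSO (-0.82, adjusted p = 0.467). The S copy held 36.9 to 38.6 percent of the nkx2-3 total in FG_DMH1 against 56 to 58.5 percent in FG_DMSO. hand2.S likewise fell under BIO (log2 difference -2.16, limma adjusted p = 0.000676) and was not called under DMH1, at 3.56, 3.52 and 2.21 TPM in FG_DMH1 against 10.32, 6.47 and 8.63 TPM in FG_DMSO (-1.21, adjusted p = 0.229). All of these FG_DMH1 values lay below those of FG_DMSO. Unlike hand2.L, hand2.S was called neither by region in vehicle (log2 difference -0.80, limma adjusted p = 0.286) nor for the difference between the regions in the BIO effect (0.95, adjusted p = 1). In HG_BIO hand2.S stood at 2.31, 0.84 and 1.04 TPM, all below its HG_DMSO values of 6.77, 2.53 and 4.57 TPM. It was not called there (log2 difference -1.21, limma adjusted p = 0.337). With the copies summed, nkx2-3 was no longer called under DMH1 (log2 difference -1.37, limma adjusted p = 0.117). hand2.S matched hand2.L in the foregut layers, at 30.58 and 17.64 TPM in FG_meso against 0.84 and 0.51 TPM in FG_endo (log2 difference 3.86, limma adjusted p = 3.08e-07). nkx2-5.L stood at 10.15 and 10.08 TPM in FG_meso, between its FG_endo values of 4.84 and 39.68 TPM. nkx2-3.L stood at 9.68 and 8 TPM in FG_meso against 8.68 and 12.19 TPM in FG_endo. Neither was called there (limma adjusted p = 0.695 and 0.811). In the hindgut layers nkx2-3.L (log2 difference 0.87, limma adjusted p = 0.102) went opposite to nkx2-3.S (-0.55, 0.378), with neither called.

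The wider heart field list, meant for transcription factors, held 34 names and 64 rows, of which 53 passed the filter, and 49 were not among the 4 factors. These 49 still hold the factors' other copies nkx2-5.L, nkx2-3.L and hand2.S, so the counts below are not of other genes only. Each of these copies was called lower in FG_BIO than in FG_DMSO. nkx2-5.L and nkx2-3.L were also called lower in HG_DMSO than in FG_DMSO. One name, bop1, is not a heart field factor, and its rows stay in the counts and medians below. The list was drawn up with earlier results of these data known and is not independent evidence of any direction. In FG_BIO against FG_DMSO, 14 of the 49 rows fell and 4 rose, with the median of the 49 at -0.575 beside -0.084 over all rows. Of all 28863 rows tested, 1855 were called there in either direction, 1300 of them lower. isl1.L, a marker of the second heart field, averaged 14.7 TPM in FG_BIO against 85.8 TPM in FG_DMSO, and nkx2-6.L, a further NK2 gene of the pharynx and heart, had 9.95, 7.65 and 3.33 TPM in FG_BIO against 64.41, 50.62 and 51.26 TPM in FG_DMSO. The rows that rose were foxf1.L (14.9 against 5.92 TPM) and foxf1.S, genes of splanchnic mesoderm, and bop1.L and bop1.S, which belong to a gene known for ribosome biogenesis. Leaving out any single FG_BIO or FG_DMSO library left 0 to 2 of these rises called, and 0 without FG_BIO replicate 2.

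In FG_DMH1 against FG_DMSO, 3 of the 49 rows fell (0.509 percent of all rows) and none rose, with the median of the 49 at -0.042 beside 0 over all rows. They were tbx3.L (11.2 ± 3.39 TPM in FG_DMH1 against 77.1 ± 7.77 TPM in FG_DMSO) and tbx3.S, T-box repressors used in the cardiac conduction system, and hey1.S, a Notch effector close to the threshold (limma adjusted p = 0.0459). isl1.L stood level at 83.9 TPM in FG_DMH1 against 85.8 TPM in FG_DMSO, tbx1.L, a pharyngeal and second heart field factor, was not called (log2 difference 0.82, limma adjusted p = 0.636), and neither were the gata4, gata5 and gata6 rows. No row of the contractile list, of which 23 were tested, was called by limma under DMH1 or BIO in foregut, and 0 had an unadjusted p under 0.05, with sums of 50.6 to 81.8 TPM in FG_DMH1, 30.1 to 42.8 TPM in FG_BIO and 46.8 to 62.7 TPM in FG_DMSO. The same list summed to 4757 to 5129 TPM in Dorsal pieces, which include the tissue that forms skeletal muscle.

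**Figure D4:**
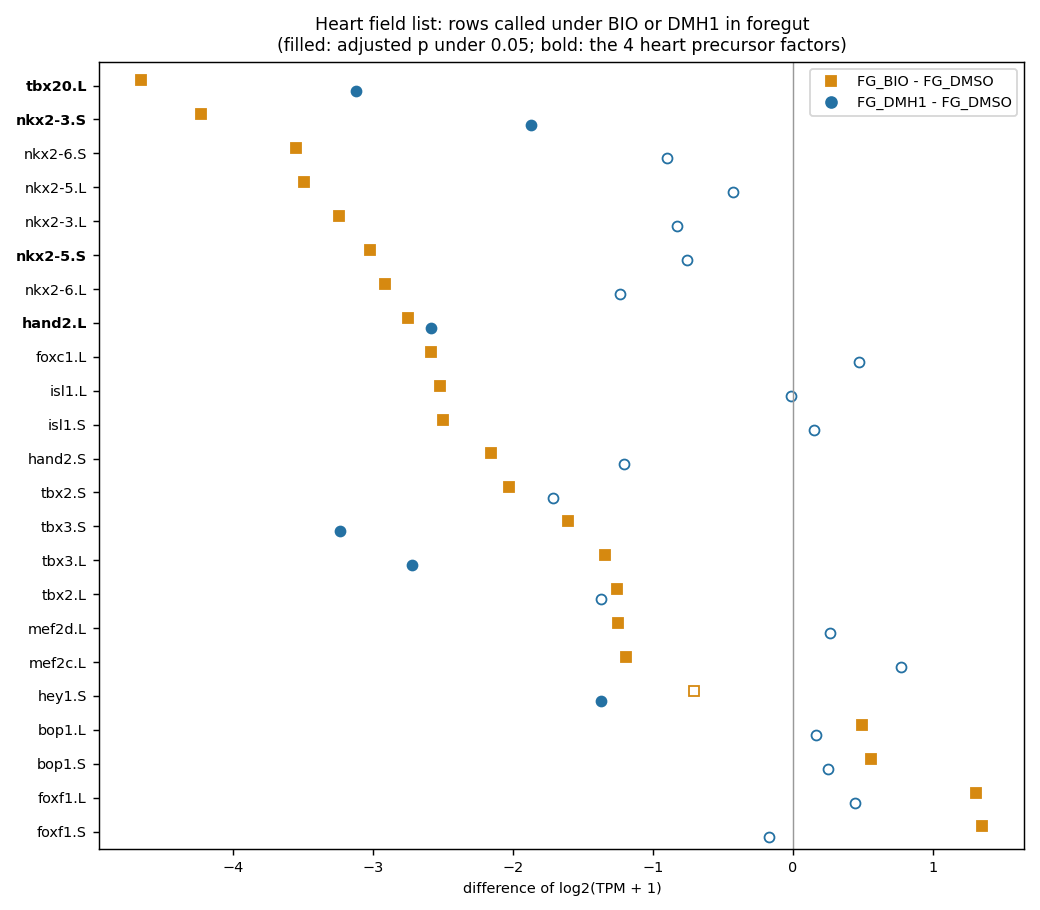
Log2 difference of log2(TPM + 1) from FG_DMSO for each row of the heart field list called under BIO (squares) or DMH1 (circles) in foregut. tbx20.L, nkx2-3.S and hand2.L are lower under both, tbx3.L lies at -2.72 under DMH1 and -1.34 under BIO, and isl1.L is called lower under BIO (-2.52) and not under DMH1.

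By region, 16 of the 49 rows were lower and 7 higher in HG_DMSO than in FG_DMSO (median of the 49 -0.556, of all rows -0.12). Of all 28863 rows tested, 2155 were called there in either direction, 1467 of them lower. Lower rows included tbx1.L (1.08 TPM in HG_DMSO against 84.1 TPM in FG_DMSO) and isl1.L (10.6 against 85.8 TPM), and the higher rows were the copies of foxf1, mespa and mespb with smyd1.L. By foregut layer, 8 of the 49 were higher in mesoderm, a share near the 18 percent of all rows, and 7 were lower, with the median of the 49 at -0.012 beside 0.082 over all rows. Of all 28863 rows tested, 7636 were called by foregut layer in either direction, 5182 of them higher in mesoderm. The 10 higher and 7 lower rows of the whole list became 8 and 10 without FG_endo replicate 1, and 15 and 3 without FG_endo replicate 2. Those higher were copies of foxc1, foxc2, foxf1, hand2 and irx4, and those lower were copies of gata4, gata5, tbx1 and nkx2-6.S. gata4.L, which acts with Nkx2-5 and Tbx20 in heart mesoderm and is also an endoderm regulator, averaged 3.11 TPM in FG_meso against 40.4 TPM in FG_endo.

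The list of heart field signals and receptors held 43 tested rows. Under DMH1 in foregut 9 fell and none rose, among them szl.L, a secreted BMP feedback inhibitor (15.6 ± 10.8 TPM in FG_DMH1 against 256.5 ± 146 TPM in FG_DMSO), smad7.L, an inhibitory Smad (log2 difference -1.84), and the ligand genes bmp4.L (-0.86) and bmp4.S (-1.02). Under BIO in foregut 7 fell and 2 rose, beside 1855 of all rows called in either direction and 1300 called lower. bmp4.L averaged 18.6 TPM in FG_BIO against 44.1 TPM in FG_DMSO, bmp2.L fell by 1.21 on the log2 scale, and the rows that rose were dkk1.S (2.15) and wnt11.S. szl.L and bambi.L, lower under DMH1, were also lower under BIO, against the same FG_DMSO libraries.

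The genes whose level followed each factor most closely over the 15 group means differed by factor. These correlations of mean log2(TPM + 1) are descriptions over groups that share tissues and experiments. For nkx2-5.S the highest were nkx2-6.L (r = 0.963), fli1.S (0.957), lyl1.S (0.956), dapp1.S (0.947) and nkx2-6.S (0.945). For nkx2-3.S they were spib.L (0.975), timp-1.L (0.952), ccl42d.L (0.952), nkx2-6.L (0.951) and tkt.S (0.947). tbx20.L was followed by tmtops.L (0.93), slc6a3.S (0.915), pacsin3.S (0.911), mbnl1.L (0.9) and chrm4.S (0.869), and hand2.L by runx1.S (0.931), vmp1.S (0.926), fabp4.L (0.916), hcrt.L (0.912) and ostf1.S (0.91). Among the 4 factors the correlation was highest between nkx2-5.S and nkx2-3.S (r = 0.89) and lowest between nkx2-5.S and hand2.L (0.295), with 0.739 between tbx20.L and hand2.L.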

How the data were processed

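RNA was sequenced from 37 libraries with a stranded mRNA kit. The deposited table holds TPM per gene, made by the authors. The submitters' processing notes name FastQC, Trimmomatic and RSEM, and their versions and the genome build are not given in the sources used here. TPM keeps no depth, so no count test was used. Rows that reached 1 TPM in 2 or more libraries were kept (28863 of 40271), a pseudocount of 1 was added, and all 15 group means were fitted together on the log2 scale with a mean-variance trend in limma 3.58.1 (R 4.3.3), with 22 residual and 4.22 prior degrees of freedom. P-values were adjusted over all rows kept and called under 0.05. The steps were tested on simulated data, and figures used Python 3.11.15 and matplotlib 3.10.9.

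The members and the 8 gene lists were chosen with earlier results of these data known. The genes named were the members, their other copies, up to 4 called rows with the smallest p in a list's comparison, rows of the heart field list, the 5 most correlated genes with at least 5 TPM in their highest group, and label checks. The cement gland genes ag1.L and pitx1.L, sox17a.L and the uncalled heart field rows given were picked after values were seen. The 4 hindgut columns of the heat experiment matched only a group, so they are lettered and unpaired. Labels call replicates independent without saying of what, so p-values measure the spread between these libraries. Same-numbered libraries deviated together in all 45 pairs of the inhibitor experiment (r between 0.253 and 0.557), so the numbers were taken to pair them, and the fit without the block stayed the main one. For the layers, with 2 libraries a group, both numbers mirror each other, so the 6 group pairs (r between 0.101 and 0.335) do not settle pairing. The closing section gives the effect of 10 alternatives of pseudocount, filter, scaling, copies, block, groups fitted and libraries left out, and 1 more, the foregut layer lists without FG_endo replicate 1, was chosen after seeing the data.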

Additional observations from a re-analysis of the deposited data

Results flagged for a closer look

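Of the factors' results, 5 were flagged because limma called an interaction term, the effect in hindgut minus that in foregut. The effect of BIO, hindgut minus foregut, differed for tbx20.L by 3.92 on the log2 scale (adjusted p = 4.86e-05), for nkx2-3.S by 3.24 (adjusted p = 0.000421), for nkx2-5.S by 2.74 (adjusted p = 0.000952) and for hand2.L by 2.53 (adjusted p = 0.0135). With a pseudocount of 0.1 the calls of nkx2-3.S (adjusted p = 0.286), nkx2-5.S (0.308) and hand2.L (0.0856) were lost. For all 4 genes the foregut level fell and the hindgut level, already low, had no call.

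The difference between mesoderm and endoderm, hindgut minus foregut, differed for tbx20.L by -4.44 (adjusted p = 2.23e-05). tbx20.L was 19.9-fold higher in FG_meso than in FG_endo, and 3.05-fold lower in HG_meso than in HG_endo by the means, the second of these resting on 2 libraries per group with 11.3 and 4.04 TPM in HG_endo.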

How the results depend on the processing

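Over the members' comparisons, 655 values outside the leave-one-out fits kept direction and side of the threshold, 42 lost a call, 12 gained one and 7 changed sign; leaving out single libraries gave 470, 19, 2 and 13. The cause was not tested unless given. Fitting only the groups compared left few degrees of freedom and ended these calls: hand2.L in HG_DMSO against FG_DMSO (log2 difference -1.53, limma adjusted p = 0.0763), nkx2-3.S (-1.87, 0.195) and hand2.L (-2.58, 0.132) under DMH1, nkx2-5.S (-3.68) and nkx2-3.S (-3.12) between unheated regions (both 0.296), tbx20.L (3.26, 0.0603) and hand2.L (3.86, 0.0509) by foregut layer, tbx20.L (-1.19, 0.321), nkx2-5.S (-1.21, 0.115) and hand2.L (2.41, 0.0865) by hindgut layer, all 4 between mesoderms (-2.29, -3.49, -4.43 and -1.78), tbx20.L, nkx2-5.S and nkx2-3.S between endoderms (2.15, -2.87 and -3.42), the tbx20.L layer interaction (-4.44, 0.08), and those given in the report for HG_HSdkk1 against FG_HSdkk1 and FG_BIO against FG_DMH1; it called tbx20.L in HG_DMH1 against FG_DMH1 (-1.08, 0.0148), as did a 5 TPM filter (0.042). A pseudocount of 0.1 ended calls for hand2.L by region (-1.90, 0.182) and between mesoderms (-2.01, 0.398), nkx2-3.S under DMH1 (-1.99, 0.35) and the BIO interactions of nkx2-5.S (2.47, 0.308), nkx2-3.S (2.93, 0.286) and hand2.L (4.27, 0.0856), ended nkx2-3.S in HG_HSdkk1 against FG_HSdkk1 (-2.04, 0.578), and turned nkx2-5.S under DMH1 in hindgut to 0.0067. A pseudocount of 5 ended those by hindgut layer of tbx20.L (-0.70, 0.0545) and nkx2-5.S (-0.46, 0.168) and the hand2.L BIO interaction (1.18, 0.063), brought in tbx20.L between unheated regions (-1.18, 0.0246) and heated ones (-1.13, 0.0417) and the DMH1 interactions of tbx20.L (2.10, 0.00111) and nkx2-3.S (1.28, 0.0272), and turned the nkx2-5.S interactions with heat (-0.11) and layer (0.043). With no filter nkx2-3.S by heat in hindgut was called (2.33, 0.036), and tbx20.L by hindgut layer (-1.19, 0.0503) and hand2.L between mesoderms (-1.78, 0.0572) were not; a 5 TPM filter called tbx20.L between unheated regions (-1.64, 0.0434), and median-of-ratios scaling called nkx2-3.S by heat in hindgut (2.39, 0.0417), while moving the median over all rows to 0.006, against -0.12, in HG_DMSO against FG_DMSO, and to -0.051, against -0.226, in Dorsal against FG_DMSO. Summing copies ended calls for hand2 by region (-1.22, 0.055), nkx2-3 under DMH1 (-1.37, 0.117) and the hand2 BIO interaction (1.90, 0.15), called hand2 under DMH1 in hindgut (-1.56, 0.0435), and turned nkx2-5 under DMH1 (0.099) and BIO (0.066) in hindgut and nkx2-3 by hindgut layer (0.17). Without the number 1 libraries calls ended for hand2.L by region (-1.55, 0.0696), nkx2-3.S under DMH1 (-1.60, 0.118), tbx20.L in FG_BIO against FG_DMH1 (-1.42, 0.111) and the hand2.L BIO interaction (2.44, 0.144), and nkx2-5.S under DMH1 in hindgut turned to 0.26. The replicate block called the tbx20.L DMH1 interaction (2.26, 0.0281), with the other changes given beside their results, and raised the rows called under DMH1 in foregut to 497, against 213 without it, under BIO in foregut to 3348, against 1855, and under BIO in hindgut to 148, against 8 (1 to 25 with 1 library left out); fitting the groups alone gave 2 rows under DMH1, and leaving out FG_DMSO replicate 3 gave 115. Leaving out each library gave ranges of -1.74 to -1.31 (hand2.L by region), -2.09 to -1.55 (nkx2-3.S, DMH1, foregut), -0.17 to 0.22 (nkx2-5.S, DMH1, hindgut), 1.83 to 2.82 (nkx2-3.S, heat, hindgut), -1.83 to -0.54 (tbx20.L) and -1.51 to -0.92 (nkx2-5.S) by hindgut layer, -2.38 to -1.18 (hand2.L, mesoderms), -0.38 to 0.083 (hand2.L, HG_DMH1 against FG_DMH1), -1.21 to 0.47 (hand2.L, HG_HSdkk1 against FG_HSdkk1), -0.45 to 0.027 (hand2.L, FG_BIO against FG_DMH1), 1.78 to 2.67 (tbx20.L, DMH1 interaction), 2.32 to 2.74 (hand2.L, BIO interaction), and -0.12 to 0.75 (tbx20.L) and -0.12 to 1.56 (hand2.L) for the heat interaction.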
